A study of Mus musculus with 22 samples.

Results

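The 10 genes described here encode transcription factors that are used as markers of mesenchymal cells and of epithelial-to-mesenchymal transition (EMT): the homeobox factors *Msx1*, *Msx2*, *Prrx1* and *Prrx2*, the basic helix-loop-helix factors *Twist1* and *Twist2*, the zinc-finger repressors *Snai1* and *Snai2*, and the zinc-finger homeobox factors *Zeb1* and *Zeb2*. They were taken by name, without regard to their values, from the 41388 genes of the count files. Of the 10, 9 passed the filter on low counts and were among the 15018 genes tested, and *Msx2* did not.

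RNA was sequenced from the stroma of tumors grown in C57BL/6 mice at postnatal day 56, in 22 libraries. All mice carried the Ai9 (TdTomato) reporter, and 11 libraries came from mice labelled wild type (Osx-cre;Ai9) and 11 from mice labelled Cdh2-cKO;Ai9. For wild type, 4 mice were inoculated, and for Cdh2-cKO, 6. Sorting by TdTomato and CD45 gave TdTOSX single positive cells (TdTOSX+ CD45-, 2 libraries per genotype), and double positive (TdTOSX+ CD45+), CD45 single positive (TdTOSX- CD45+) and double negative cells (TdTOSX- CD45-), with 3 libraries of each per genotype. The labels call the tumor orthotopic MMTV-BO1, whereas the study describes PyMT-BO1 cells injected under the skin. Osx-cre is driven by the promoter of *Sp7*, which encodes osterix, in a form that doxycycline turns off. The study says that the experiments after its first ones used mice fed doxycycline until weaning, to hold Cre off until then. The reporter stays on after Cre has acted, so TdTomato marks cells that had used the driver or descend from such cells, whether or not they still use it. The labels do not say which libraries came from the same mouse.

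Homeobox factors of the Msx and Prrx families pattern limb and craniofacial mesenchyme, and Prrx1 is widely used to mark connective tissue and its fibroblasts. Twist, Snai and Zeb proteins bind E-box sequences (CANNTG, where N is any base), and Snai and Zeb proteins repress epithelial genes such as *Cdh1* (E-cadherin). Zeb factors are also used outside mesenchyme: both Zeb1 and Zeb2 take part in the development of blood cells, Zeb1 in lymphocytes and Zeb2 in myeloid, dendritic and natural killer cells. TGF-beta and BMP signals are well known inducers of these genes.

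The promoters of 3 members are shown. They are the ones that hold CACCTG or TAATTA in the stretch that can be printed, so the marked matches follow from this choice. The reverse-strand and forward-strand sequences are from RefSeq (GRCm38.p6), read 5′ to 3′ along the gene, and stop before the first transcribed base of both RefSeq and GENCODE. In the promoters of *Snai1* (chr2:167537945-167538194, + strand) and *Msx1* (chr5:37824586-37824835, - strand) the capitals mark CACCTG, the E-box read by Snai and Zeb proteins, and in that of *Prrx1* (chr1:163313711-163313900, - strand) they mark TAATTA, a core motif of homeobox proteins.
Snai1: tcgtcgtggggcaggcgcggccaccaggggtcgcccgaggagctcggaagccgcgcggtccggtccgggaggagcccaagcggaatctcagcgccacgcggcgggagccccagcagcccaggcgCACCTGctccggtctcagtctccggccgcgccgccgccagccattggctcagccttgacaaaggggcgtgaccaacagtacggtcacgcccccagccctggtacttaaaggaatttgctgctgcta
Msx1: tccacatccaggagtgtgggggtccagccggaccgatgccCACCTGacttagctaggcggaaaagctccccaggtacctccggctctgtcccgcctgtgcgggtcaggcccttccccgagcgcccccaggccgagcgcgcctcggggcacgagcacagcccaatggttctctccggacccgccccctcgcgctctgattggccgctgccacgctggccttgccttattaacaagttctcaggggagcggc
Prrx1: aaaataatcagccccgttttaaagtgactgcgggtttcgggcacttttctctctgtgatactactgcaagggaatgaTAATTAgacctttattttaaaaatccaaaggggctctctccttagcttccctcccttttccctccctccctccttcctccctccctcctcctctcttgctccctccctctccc
The E-box begins 126 bases before the RefSeq start of *Snai1* and 210 bases before that of *Msx1*, and TAATTA begins 173 bases before the start of *Prrx1*. RefSeq promoters were at hand for 8 of the 10 genes. Searched on both strands in the 250 bases before the start, CACCTG was in the promoters of 2 of these 8 genes and in those of 19.4% of all 27025 genes of the table. TAATTA was in 2 of the 8, *Prrx1* and *Msx2*, and in 5.65% of all genes. A match is a run of letters and not a measured binding site.

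The libraries held 16594228 to 26784003 gene counts each (median 18977040), and at these depths 3 reads, the smallest count taken as present, equal 0.1 to 0.2 CPM, the read count scaled to library size. Levels are given as CPM scaled by TMM factors, which even out differences in RNA composition between libraries. The labels were checked on 3 genes. *Ptprc*, which encodes CD45, was lower in CD45- than in CD45+ libraries (log2 fold change -3.59, SE 0.627, edgeR adjusted p = 9.04e-05), but stood at 337 CPM in wild type double negative replicate 3, at 160 and 86 CPM in the libraries of TdTOSX single positive cells labelled Cdh2-cKO, and at 76.6 CPM in wild type TdTOSX single positive replicate 2. *Sp7* had 3 reads in all 22 libraries together. *Cdh2*, the gene named by the knockout, was not lower in libraries labelled Cdh2-cKO: in TdTOSX single positive cells it stood at 8.95 and 4.89 CPM in wild type and at 16.8 and 12.5 CPM in Cdh2-cKO libraries (log2 fold change 1.08, SE 0.841, adjusted p = 0.661). Which exons the knockout removes is not given in the sources used here, so a count over the whole gene may not show it, and the genotypes are named below as the labels give them. Wild type CD45 single positive replicate 2 stood apart from the other CD45+ libraries by a T cell marker sum of 2380 CPM, against 33.2 to 593 CPM in the other CD45+ libraries, and a B cell marker sum of 3230 CPM, against 8.27 to 21.5 CPM.

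The first comparison asked in which sorted cells the factors were transcribed, by setting both CD45- populations against both CD45+ populations. The 8 factors *Msx1*, *Prrx1*, *Prrx2*, *Twist1*, *Twist2*, *Snai1*, *Snai2* and *Zeb1* were higher in CD45- cells, by 2.92 to 7.57 on the log2 scale, and *Zeb2* was lower by 0.90, under the fold threshold. A gene was called at an adjusted p of at most 0.05 and an absolute log2 fold change of at least 2. By this rule 8 of the 9 tested factors were called higher, against 16.2% of all genes tested, and none was called lower, against 8.5% of all genes (24.7% in either direction). The median log2 fold change of the 9 factors was 4.93, and that of all genes -0.03. In 7 of the 9 the 10 CD45- libraries lay wholly above the 12 CD45+ libraries, as did 11.3% of all genes. *Msx1*, *Prrx2*, *Twist2* and *Snai2* reached at most 0.160, 0.641, 0.583 and 0.874 CPM in CD45+ libraries. They passed the low-count filter, which asks for more than 1 CPM, through CD45- libraries alone. The filter therefore left them open to a call as higher but not as lower, and their calls and lack of overlap are descriptions only. Since these are bulk libraries, more cells of a type and more RNA per cell cannot be told apart.

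**Figure D1:**
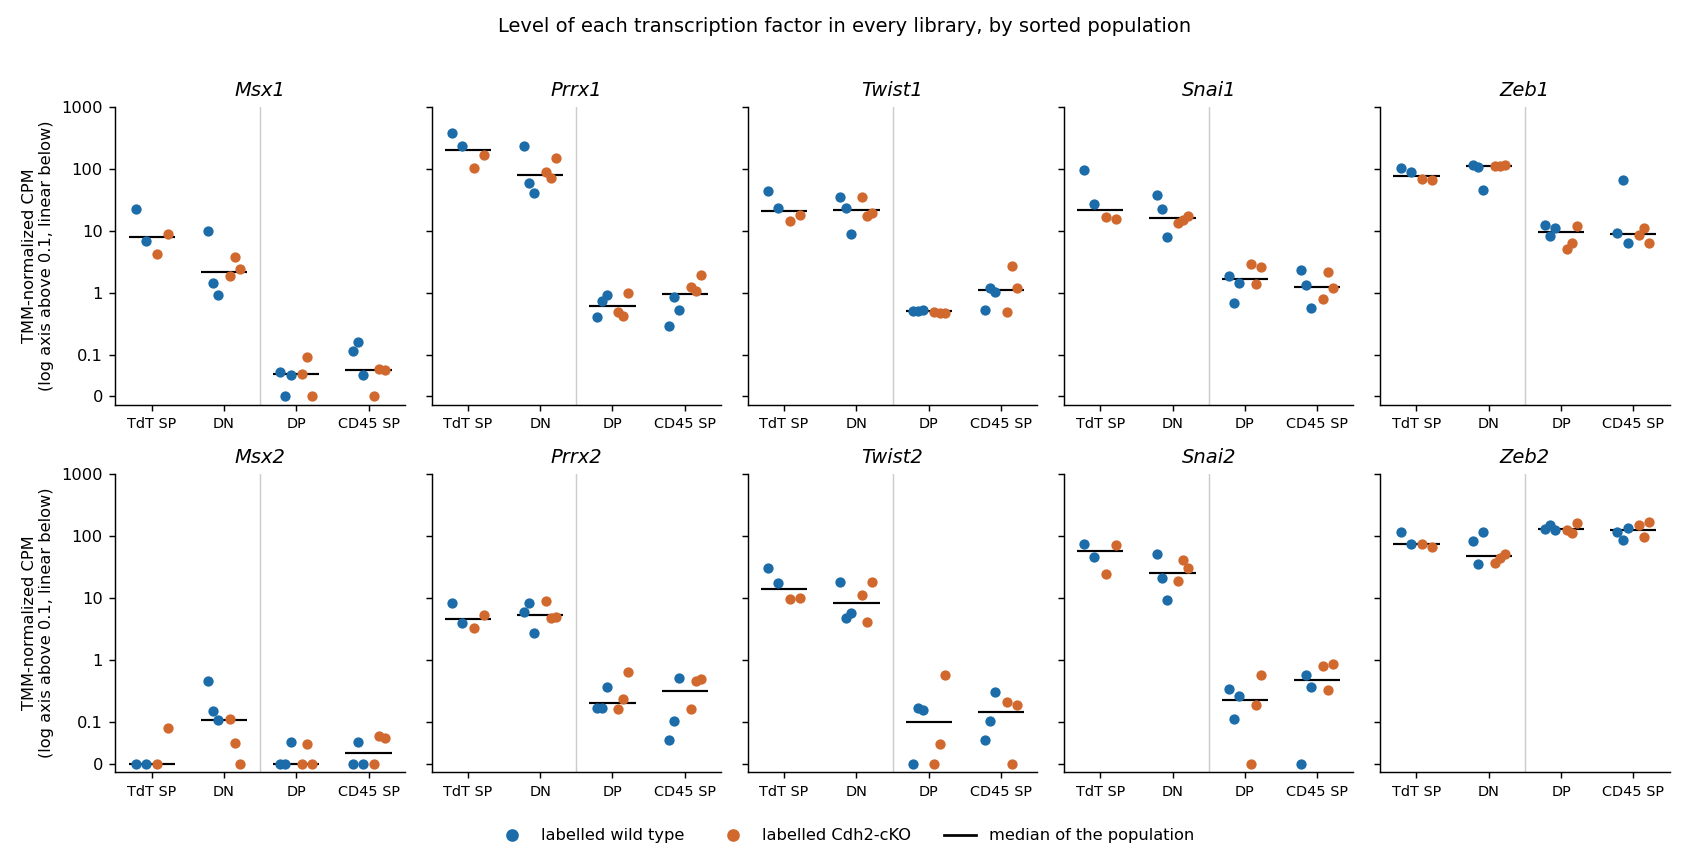
Level of each factor in every library (TMM-normalized CPM, log axis above 0.1), by sorted population: TdTOSX single positive (TdT SP), double negative (DN), double positive (DP) and CD45 single positive (CD45 SP). Points are libraries, coloured by labelled genotype, and bars are medians of a population. *Prrx1* sits at 40 to 383 CPM in CD45- and at 0.290 to 1.93 CPM in CD45+ libraries, whereas *Zeb2* is high in all 4 populations.

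Among the homeobox factors, *Prrx1* (chromosome 1, 163245119 to 163313710 on GRCm38) had the largest difference of the group. Its level was 383 and 230 CPM in the wild type and 102 and 165 CPM in the Cdh2-cKO libraries of TdTOSX single positive cells. In the 6 double negative libraries it ran from 40 to 233 CPM, with a median of 80.2. The 12 CD45+ libraries held 0.290 to 1.93 CPM, 174 reads in all, so the lowest CD45- library was far above the highest CD45+ library. The difference between CD45- and CD45+ was 7.57 on the log2 scale (SE 0.363, adjusted p = 5.51e-11), a 190-fold change. *Prrx1* overlaps an antisense gene, *Gm20471*, and a noncoding gene, *Gm26523*, and since the kit does not mark strand, reads of the shared stretches cannot be assigned with certainty.

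*Prrx2*, its paralog (chromosome 2, 30834972 to 30881251), was less abundant and differed less. It stood at 2.75 to 8.97 CPM in CD45- libraries, with a median of 5.14, and at 0.0579 to 0.641 CPM in CD45+ libraries (log2 fold change 4.24, SE 0.372, adjusted p = 3.6e-08). The 4 TdTOSX single positive libraries, at 8.5, 3.94, 3.34 and 5.36 CPM, lay within the range of the double negative libraries.

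*Msx1* (chromosome 5, 37820485 to 37824583), which acts in craniofacial and tooth development, was at or near 0 in CD45+ cells. The 12 CD45+ libraries held 13 reads together, 3 of them had none and 1 reached 3 reads, at 0.160 CPM. TdTOSX single positive libraries held 22.8 and 6.94 CPM in wild type and 4.24 and 8.89 CPM in Cdh2-cKO, and double negative libraries 0.936 to 10.1 CPM, with a median of 2.16. The difference between CD45- and CD45+ was 6.56 on the log2 scale (SE 0.541, adjusted p = 1.62e-08). *Msx2* (chromosome 13, 53466884 to 53473074) had 25 reads in all 22 libraries, 10 of them in wild type double negative replicate 1, at 0.471 CPM. It was at 0 reads in 3 of the 4 TdTOSX single positive libraries, and a difference was not detectable at this depth.

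Both Twist genes, which encode factors of mesoderm and of skeletal and dermal mesenchyme, were higher in every CD45- library than in any CD45+ library. *Twist1* (chromosome 12, 33957671 to 33959817) stood at 9.03 to 43.9 CPM in CD45- libraries, with a median of 21.3, and at 0.466 to 2.67 CPM in CD45+ libraries, with a median of 0.519 (log2 fold change 4.93, SE 0.303, adjusted p = 4.63e-10). *Twist2* (chromosome 1, 91801461 to 91848028) stood at 4.08 to 30.2 CPM and at 0 to 0.583 CPM, with 33 reads in the CD45+ libraries together (log2 fold change 6.34, SE 0.533, adjusted p = 2.13e-08). *Twist2* overlaps *Gm29100*, an antisense gene, and *Gm29101*, which lies in its intron.

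Both Snai repressors were higher in CD45- cells, by unequal folds. *Snai2* (chromosome 16, 14705852 to 14709395), known as Slug, stood at 74.7 and 45.7 CPM in the wild type and at 24.7 and 71.7 CPM in the Cdh2-cKO libraries of TdTOSX single positive cells. Double negative libraries ran from 9.36 to 51.9 CPM, and CD45+ libraries from 0 to 0.874 CPM (log2 fold change 6.84, SE 0.474, adjusted p = 1.97e-09). *Snai1* (chromosome 2, 167538195 to 167542814), known as Snail, stood at 95.3, 27, 17.0 and 15.6 CPM in the same 4 TdTOSX single positive libraries and at 8.09 to 37.6 CPM in double negative libraries. Its CD45+ libraries all had reads, with 0.574 to 2.94 CPM, and the difference was 3.95 (SE 0.325, adjusted p = 1.61e-08). Wild type TdTOSX single positive replicate 1, the library with the highest *Snai1*, also had the highest level of *Prrx1*, *Msx1*, *Twist1*, *Twist2*, *Snai2* and *Zeb2* of the CD45- libraries and the highest fibroblast marker sum, 58400 CPM.

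The Zeb genes differed from each other. *Zeb1* (chromosome 18, 5591860 to 5775467) stood at 103, 87.3, 68.5 and 66.2 CPM in TdTOSX single positive libraries. Double negative libraries held 107 to 117 CPM, apart from wild type replicate 3 with 45.3 CPM. CD45+ libraries held 5.01 to 12.4 CPM, apart from wild type CD45 single positive replicate 2 with 66.5 CPM, the library with the high T and B cell marker sums and an endothelial marker sum of 205 CPM, and the groups overlapped through these libraries. The part of these cells in that value was not tested. The difference was 2.92 (SE 0.334, adjusted p = 9.51e-07), and 3.38 without that library. *Zeb1* overlaps *Gm10125*, *Gm16147* and *Gm22709*.

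*Zeb2* (chromosome 2, 44983634 to 45117395) was the one factor that CD45+ cells held at a high level. CD45+ libraries ran from 88.0 to 172 CPM, with a median of 129, and CD45- libraries from 35.9 to 118 CPM, with a median of 70.8. The difference was -0.90 (SE 0.178, adjusted p = 0.000276), which passes the adjusted p but not the fold threshold. Of the CD45- libraries, the highest were wild type TdTOSX single positive replicate 1, at 118 CPM with a pan-leukocyte marker sum of 217 CPM, and wild type double negative replicate 3, at 117 CPM with a sum of 6720 CPM. The 3 Cdh2-cKO double negative libraries, with leukocyte sums of 369, 373 and 472 CPM, held *Zeb2* at 36.4, 44.1 and 51.5 CPM, and the part of leukocytes in its level was not tested. The antisense gene *Zeb2os* shares its locus and stood at 3.46 to 15.4 CPM in CD45+ and at 0.385 to 5.01 CPM in CD45- libraries, and without strand the reads of the shared stretches cannot be told apart.

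The same 8 factors were called within TdTOSX+ cells, within TdTOSX- cells, in wild type and in Cdh2-cKO libraries. Between 15.8% and 16.1% of all genes were called higher in these 4 comparisons. Among TdTOSX+ cells, that is TdTOSX single positive against double positive, the log2 fold changes of the 8 ran from 3.15 for *Zeb1* to 8.24 for *Prrx1*, and among TdTOSX- cells from 2.70 for *Zeb1* to 6.90 for *Prrx1*. Without wild type CD45 single positive replicate 2 the value of *Zeb1* among TdTOSX- cells was 3.61. The difference between these effects was not past the threshold for any factor (0 of 9, against 0.00666% of all genes), although at an unadjusted p under 0.05 there were 2, *Prrx1* with a difference of 1.35 (SE 0.624, adjusted p = 0.537) and *Twist1* with 1.21 (SE 0.561, adjusted p = 0.537). *Zeb2* was lower by 0.71 among TdTOSX+ cells (adjusted p = 0.0333) and by 1.09 among TdTOSX- cells (adjusted p = 0.000937). The first of these did not pass 0.05 with library totals (0.182), without the low-count filter, without the 3 CD45- libraries with most leukocyte reads of their groups (0.182, chosen after seeing the data), or without any 1 of 5 single libraries, at most 0.139 without wild type TdTOSX single positive replicate 2. In wild type alone it stood at -0.51 (SE 0.249, adjusted p = 0.096), or -0.71 (adjusted p = 0.0171) without double negative replicate 3, and in Cdh2-cKO at -1.29 (SE 0.255, adjusted p = 0.000523). The difference between the genotypes, -0.78 (SE 0.349), had an adjusted p of 0.63.

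**Figure D2:**
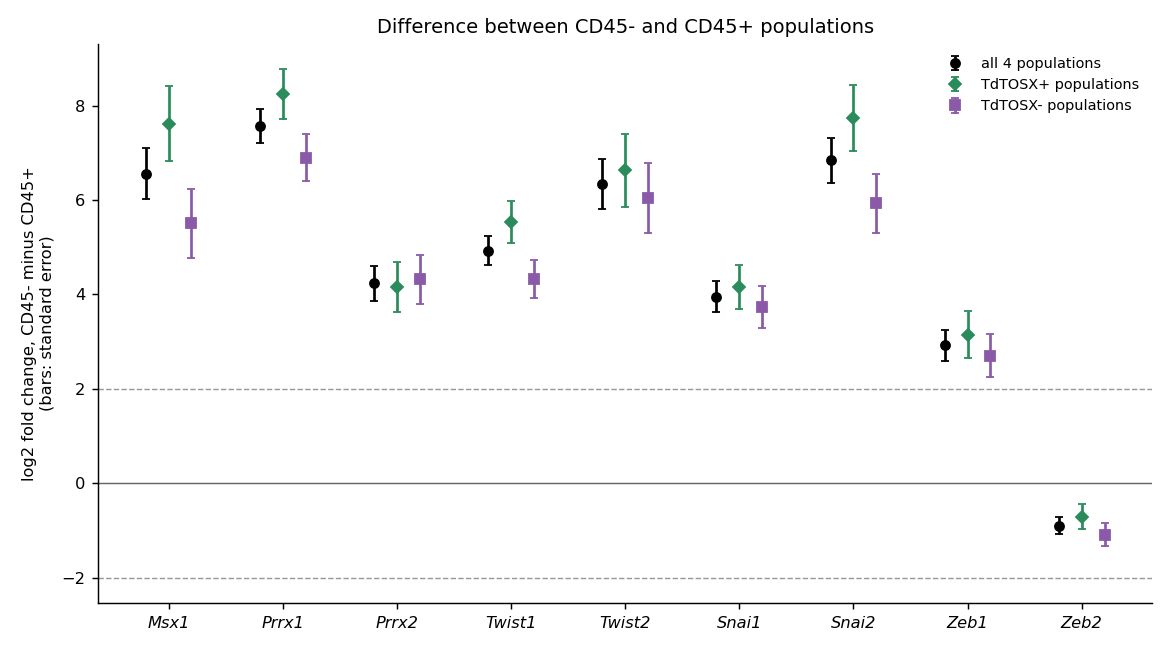
Log2 fold change of each tested factor between CD45- and CD45+ libraries (edgeR, bars are standard errors), for all 4 populations and within TdTOSX+ and TdTOSX- cells. Dashed lines mark the fold threshold of 2, which 8 factors pass in all 3 comparisons and *Zeb2* in none.

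Levels of different genes were compared per kilobase of exon. In CD45- libraries the medians were 17.7 CPM per kb for *Snai2*, 13.2 for *Twist1*, 11.3 for *Prrx1*, 10.6 for *Snai1* and 10.4 for *Zeb1*, then 3.60 for *Zeb2*, 3.33 for *Twist2*, 2.62 for *Prrx2*, 1.29 for *Msx1* and 0.021 for *Msx2*. The ranges of neighbours in this order overlapped, for example 4.61 to 36.8 CPM per kb for *Snai2* and 5.59 to 27.2 for *Twist1*. In CD45+ libraries the order was led by *Zeb2*, with a median of 6.55 CPM per kb (4.48 to 8.74), followed by *Snai1* with 0.886 (0.354 to 1.81) and *Zeb1* with 0.878 (0.495 to 6.57). *Snai1* and *Zeb1* did not differ beyond their spread, and *Zeb2* overlapped *Zeb1* through wild type CD45 single positive replicate 2. *Prrx1*, among the most abundant factors of CD45- cells, had a median of 0.072 CPM per kb in CD45+ cells, below that of *Prrx2*, 0.104.

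The share of each paralog in its pair was computed in every library. *Zeb1* made up a median of 64.9% of the Zeb pair, per kilobase, in TdTOSX single positive libraries (62.9% to 69.6%) and 82.3% in double negative libraries (42.8% to 85.5%). In double positive libraries it made up 11.1% (7.14% to 15.5%), and in CD45 single positive libraries 11.8%, with 59.5% in wild type replicate 2. These shares depend on exon length, 10112 bases for *Zeb1* and 19658 for *Zeb2*. Counted as reads, *Zeb1* and *Zeb2* had 8026 and 8166 in the TdTOSX single positive libraries together. In the double negative libraries they had 12318 and 7340. *Prrx1* made up 86.7% of its pair in TdTOSX single positive libraries (84.4% to 91.2%), 72.1% in double negative libraries (55.0% to 87.3%) and 30.3% in double positive libraries (21.5% to 43.4%, from as few as 10 reads). In CD45 single positive libraries it made up 43.8% (15.1% to 58.6%, from as few as 6 reads), which overlapped the double negative libraries. *Snai1* made up 44.4% and 47.0% of its pair in TdTOSX single positive and double negative libraries, and 87.9% in double positive libraries (84.9% to 100%, from as few as 14 reads). In CD45 single positive libraries it made up 70.2%, and their range of 55.6% to 100% overlapped that of TdTOSX single positive libraries, 21.4% to 61.5%. *Twist1* made up most of its pair in all 4 populations, with medians of 74.4% to 93.6% and ranges that overlapped. These shares are descriptions and were not tested.

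**Figure D3:**
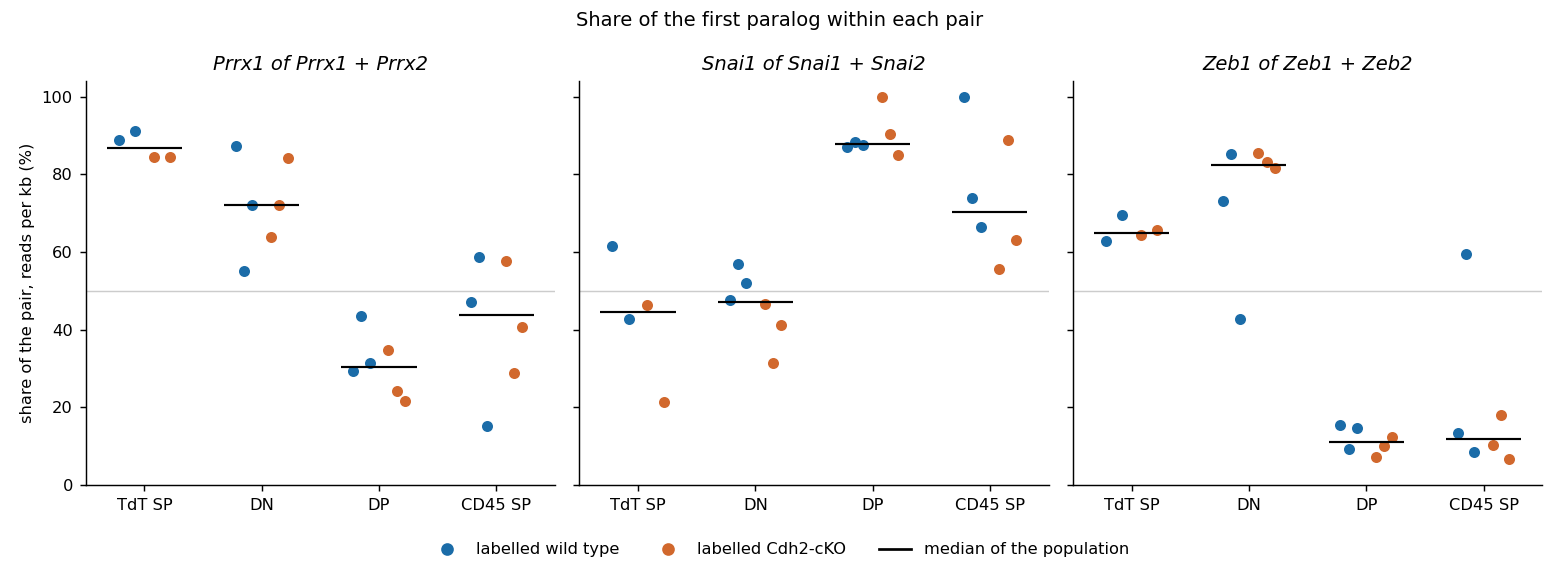
Share of the first paralog in the reads per kilobase of its pair (%), for Prrx, Snai and Zeb, in each library by population (abbreviated as in the plot of levels), with medians as bars. Scaled by exon length, *Zeb1* takes most of its pair in CD45- cells, apart from 1 double negative library at 42.8%. It takes little of the pair in CD45+ cells, apart from the library at 59.5%.

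The few reads of these factors in CD45+ libraries were set against *Col1a1*, a collagen of fibroblasts, which CD45+ libraries also held at a low level. Per 1000 *Col1a1* reads, *Prrx1* had a median of 22.4 reads in CD45- libraries (17.5 to 32.9) and 19.7 in CD45+ libraries (8.33 to 44.6), so the ratio overlapped. *Msx1* had 0.775 (0.432 to 1.16) and 1.83 (0 to 3.33), which overlapped as well but rested on 13 reads in the 12 CD45+ libraries. The medians in CD45- and CD45+ libraries were 0.744 and 7.18 for *Prrx2* and 3.41 and 19.1 for *Twist1*. They were 1.79 and 2.66 for *Twist2* and 6.15 and 11.8 for *Snai2*, and the ranges of each of these factors overlapped. *Snai1* had 4.00 (1.66 to 8.38) in CD45- and 45.7 (12.1 to 80.8) in CD45+ libraries, and *Zeb1* 16.6 (4.71 to 40.7) and 260 (130 to 1310), without overlap. *Zeb2* had 11 and 3590. The part of fibroblast RNA in the CD45+ values was not tested.

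The lists related to these factors were described by the same call rule. Genes that passed the low-count filter only through the CD45 class where they are higher were open to a call in that direction alone. How many list genes did so is not given here, so the calls of these and the marker lists are descriptions only. Of 35 other mesenchymal transcription factors, 25 were tested, with a median log2 fold change of 4.50. Of the 25, 23 were higher in CD45- cells, against 16.2% of all genes. Among these were *Heyl*, a target of Notch signalling found in mural cells (7.76, SE 0.554, adjusted p = 2.78e-09), and *Meox2*, a homeobox factor of mesoderm (7.06, SE 0.731, adjusted p = 7.25e-07). *Runx2*, the early osteoblast factor, differed by 0.99 (SE 0.22, adjusted p = 0.000805), under the fold threshold.

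Of 19 partners and corepressors, all tested, 4 were higher and 1 was lower, with a median of 0.32, near the shares of all genes (16.2% higher and 8.5% lower). The Id proteins, which sequester the E proteins that Twist factors bind, went in different directions: *Id4* was higher by 4.53 (SE 0.594, adjusted p = 8.52e-06) and *Id3* by 3.20 (SE 0.299, adjusted p = 7.66e-08), and *Id2* was lower by 2.02 (SE 0.295, adjusted p = 1.5e-05). *Ajuba*, a LIM protein that serves Snai proteins as corepressor, was higher by 3.40 (SE 0.22, adjusted p = 8.41e-10). The general corepressors *Ctbp1*, *Ctbp2* and *Hdac1* had log2 fold changes of 0.17, 0.04 and -0.01.

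Of 20 genes of TGF-beta and BMP signalling, 8 were higher and none was lower, against 16.2% and 8.5% of all genes, with a median of 1.73. They comprised the ligands *Tgfb2* (7.15, SE 0.368, adjusted p = 8.16e-11), *Tgfb3* (2.80), *Bmp2* (2.84), *Bmp4* (4.82) and *Bmp7* (3.69) and the receptors *Bmpr1b* (5.22, SE 0.455, adjusted p = 3.31e-08), *Bmpr1a* (4.27) and *Tgfbr3* (4.89). *Tgfb1*, the ligand made by many leukocytes, stood at -0.79 (SE 0.201, adjusted p = 0.00237), under the fold threshold.

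Of 24 epithelial genes that EMT factors repress, 12 were tested, 4 were higher and 3 were lower, against 16.2% and 8.5% of all genes. The 4 higher genes were all keratins, *Krt19* (7.11, SE 0.548, adjusted p = 7.26e-09), *Krt7* (4.49), *Krt18* (3.54) and *Krt8* (3.43), which simple epithelia use and which are not specific to them. The lower genes were the adhesion and junction genes *Epcam* (-4.92, SE 0.906, adjusted p = 0.000172), *Cdh1* (-4.05, SE 0.644, adjusted p = 3.49e-05) and *Marveld2* (-2.91, SE 0.462, adjusted p = 3.4e-05). *Epcam* had 54 reads in the 10 CD45- libraries, 37 of them in 1 wild type double negative library. That library, at 2.04 CPM, lay within the range of the CD45+ libraries, 0.525 to 7.87 CPM. No other CD45- library exceeded 0.401 CPM, so *Epcam* could not pass the low-count filter without CD45+ libraries. Its call as lower is therefore a description only. Of 20 mesenchymal genes of EMT, 16 were higher, against 16.2% of all genes. They were led by *Col1a2* (7.75, SE 0.38, adjusted p = 6.06e-11) and *Col5a2* (7.68, SE 0.405, adjusted p = 1.02e-10), whereas *Vim* (0.27, adjusted p = 0.277) and *Fn1* (-0.21, adjusted p = 0.407) differed by less than the threshold.

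Markers of fibroblasts, pericytes and endothelial cells, which a CD45- gate can hold, were higher along with the factors. All 8 tested fibroblast markers of 9 were called higher, as were 7 of 8 pericyte markers and 7 of 9 endothelial markers. Of all genes, 16.2% were called higher, and the limit set by the low-count filter holds for these markers too. The summed level of fibroblast markers was 4260 to 58400 CPM in CD45- and 61.2 to 217 CPM in CD45+ libraries. Endothelial sums were 61.6 to 578 CPM in CD45- libraries and 14.2 to 42.0 CPM in CD45+ libraries, apart from wild type CD45 single positive replicate 2 with 205 CPM. All 8 pan-leukocyte markers were called lower, against 8.5% of all genes. They include *Ptprc*, which encodes the sort marker CD45. Their sums were 198 to 6720 CPM in CD45- and 11300 to 13600 CPM in CD45+ libraries. The epithelial genes summed to 44 to 932 CPM in TdTOSX single positive and 530 to 2090 CPM in double negative libraries. In double positive and CD45 single positive libraries they summed to 147 to 408 and 155 to 482 CPM. The study sorted stroma away from GFP+ tumor cells, and carry-over of tumor cells was not tested. The part of each cell type in the difference of the factors was not tested either.

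Within the 10 CD45- libraries the factors fell into patterns that are given as descriptions, since the libraries come from 2 sorted populations and may share mice. *Prrx1* followed the fibroblast marker sum (Pearson's r = 0.98, Spearman's rho = 0.99, n = 10 libraries), as did *Msx1* (0.95 and 0.89) and *Snai2* (0.90 and 0.83). The pericyte marker sum moved with the same factors, with an r of 0.94 for *Prrx1*, 0.86 for *Msx1* and 0.87 for *Snai2*, and *Snai1* had 0.86 with the fibroblast and 0.87 with the pericyte sum. *Prrx1* and *Msx1* had an r of 0.91 with each other, *Msx1* and *Snai2* 0.92, and *Prrx1* and *Twist2* 0.90. *Prrx2* had an r of 0.85 with *Twist1* and 0.30 with *Prrx1*, and without wild type double negative replicate 3 these were 0.76 and -0.02. *Zeb1* had an r of 0.37 with the fibroblast sum, 0.82 with the endothelial sum and -0.89 with the pan-leukocyte sum, which were -0.16, 0.71 and -0.86 without that library. *Zeb2* had an r of 0.35 with the fibroblast sum, which became 0.91 without it. With the sum of the epithelial genes, r was -0.74 for *Zeb2*, -0.79 for *Snai1*, -0.71 for *Twist2* and -0.67 for both *Msx1* and *Prrx1*. It was -0.46 for *Twist1*, -0.42 for *Snai2*, -0.20 for *Prrx2* and 0.03 for *Zeb1*. What lies behind these coefficients was not tested.

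**Figure D4:**
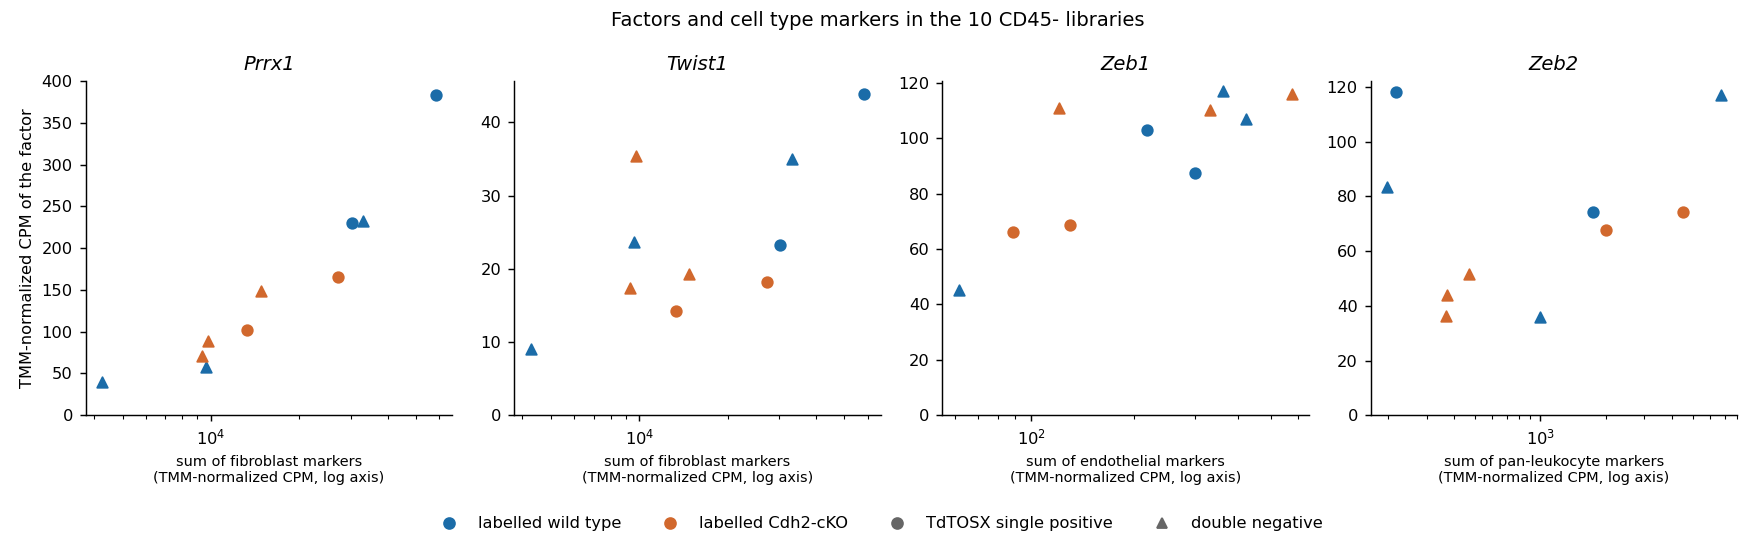
Level of 4 factors (TMM-normalized CPM) against the summed level of a marker list (log axis) in the 10 CD45- libraries, with circles for TdTOSX single positive and triangles for double negative cells, coloured by labelled genotype. *Prrx1* runs from 40 to 383 CPM along the fibroblast sum, and *Zeb2* runs from 35.9 to 118 CPM with no single direction along the leukocyte sum (r = 0.25).

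The genes most like each factor over the same 10 libraries, by Pearson's r of log2 CPM, were few of them transcription factors. For *Prrx1* they were *Cdh11*, a cadherin of mesenchyme (r = 0.996), and *Col6a2*, a collagen (0.989). For *Msx1* they were *Moxd1* (0.979) and *Tmeff1* (0.974), and for *Snai2* the matrix genes *Fbln7* (0.986) and *Srpx2* (0.982). For *Snai1* they were *Gm14403* (0.978) and *C1s1*, a complement protease (0.954). *Twist1* was most like *Tceal9* (0.964) and *Tmsb10* (0.963), and *Twist2* most like *Gpm6b* (0.965) and *Rpl39l* (0.963). *Prrx2* was most like *Anapc16* (0.956) and *2700033N17Rik* (0.927), *Zeb1* most like *Layn* (0.96) and *Rnf125* (0.95), and *Zeb2* most like *Clcn5* (0.978) and *Dennd4a* (0.962). These are the 2 highest coefficients of each factor among all tested genes other than the factors.

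The second comparison asked whether cells marked by Osx-cre differed from unmarked cells of the same CD45 class. Within CD45- cells, TdTOSX single positive against double negative, none of the 9 factors was called, against 0.286% of all genes, and voom and DESeq2 called none either. By edgeR 2 factors had an unadjusted p under 0.05: *Msx1* with a log2 fold change of 1.56 (SE 0.573, adjusted p = 0.148) and *Prrx1* with 0.92 (SE 0.407, adjusted p = 0.223). Over 8 alternative fits the log2 fold change ran from 1.33 to 1.94 for *Msx1* and from 0.72 to 1.25 for *Prrx1*. In some of these fits both factors passed the adjusted p, but in none the fold threshold. The study names *Msx1* among genes higher in TdTOSX single positive than in double negative cells of these libraries. The direction of *Msx1* here is therefore not independent evidence. The log2 fold change that the study lists for *Msx1* is well above the 1.56 found here. Its methods describe contrasting a sorted population with the average over every other population, which would include CD45+ cells. Whether the listed value came from that contrast was not tested, so it may not be comparable with 1.56. For *Msx1* the 4 TdTOSX single positive libraries held 4.24 to 22.8 CPM and the 6 double negative libraries 0.936 to 10.1 CPM. The library at 10.1 CPM was wild type double negative replicate 1, which also had the highest fibroblast sum of the double negative libraries, 33100 CPM, against 4260 to 14800 CPM in the others. Without it *Msx1* differed by 2.54 (adjusted p = 0.0144) and was the 1 factor called, and *Prrx1* differed by 1.59 (adjusted p = 0.0172), under the fold threshold. All 8 tested fibroblast markers had a log2 fold change above 0 in this comparison, with a median of 1.05 and none called, and the part of fibroblast content in the *Msx1* value was not tested.

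The other factors had log2 fold changes between -0.33 for *Zeb1* and 0.90 for *Snai2* (SE 0.531, adjusted p = 0.376), and *Twist1* had 0.00 (SE 0.385). *Zeb1* and 8 of 9 endothelial markers were on the same side, and those markers had a median of -0.98, none of them called. In the Cdh2-cKO libraries alone, *Zeb1* was at 68.5 and 66.2 CPM in TdTOSX single positive and at 110, 111 and 116 CPM in double negative cells, and *Zeb2* at 74.1 and 67.6 CPM against 36.4, 44.1 and 51.5 CPM. These 2 and *Msx1* did not overlap there, as was so for 36.3% of all genes, and none was called, against 0.02% of all genes. In the wild type libraries alone none was called either, also against 0.02% of all genes, with 3 factors at an unadjusted p under 0.05: *Prrx1* at 1.47 (SE 0.575, adjusted p = 0.229), *Snai1* at 1.44 (SE 0.607, adjusted p = 0.259) and *Msx1* at 1.83 (SE 0.809, adjusted p = 0.271). Without wild type double negative replicate 1, 2 factors were called there, *Prrx1* at 2.69 (adjusted p = 0.0143) and *Msx1* at 3.69 (adjusted p = 0.0252).

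Deviations from the group means of same-numbered TdTOSX single positive and double negative libraries had correlations of 0.59 and 0.22 in wild type. In Cdh2-cKO these were 0.11 and 0.17. Wild type TdTOSX single positive replicate 2 had a higher one, 0.43, with double negative replicate 3. The 4 same-numbered pairs are not independent, since the deviations of 2 libraries in a group mirror each other. In these 4 pairs *Msx1* was at 22.8 and 10.1, 6.94 and 1.43, 4.24 and 1.88, and 8.89 and 3.72 CPM, and *Prrx1* at 383 and 233, 230 and 58.2, 102 and 89.4, and 165 and 70.9 CPM, each time higher in the TdTOSX single positive library. *Snai1*, *Snai2* and *Zeb2* were also higher in 4 of 4 pairs and *Zeb1* lower in 4 of 4, as were 16.2% and 19.1% of all genes. With the replicate number as a block, *Msx1* differed by 1.47 (SE 0.45, adjusted p = 0.104) and *Prrx1* by 1.11 (SE 0.396, adjusted p = 0.154), and 22 genes were called in place of 43, none of them a factor.

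Within CD45+ cells, double positive against CD45 single positive, none of the 9 factors was called by edgeR, voom or DESeq2, against 0.00666% of all genes by edgeR. *Twist1* was at 0.466 to 0.521 CPM in the 6 double positive and at 0.485 to 2.67 CPM in the 6 CD45 single positive libraries (log2 fold change -1.21, SE 0.417, unadjusted p = 0.00976, edgeR adjusted p = 1). It rested on 55 and 120 reads. No other factor had an unadjusted p under 0.05. *Zeb1* had a log2 fold change of -0.77 (SE 0.436), with the library at 66.5 CPM among the CD45 single positive ones, and 0.13 without that library.

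The third comparison set libraries labelled Cdh2-cKO against wild type in each population. None of the 9 factors passed an adjusted p of 0.05 in any of the 4 populations by edgeR, voom or DESeq2, where by edgeR 0.00666% of all genes did so in TdTOSX single positive cells and none in the others (0%). In TdTOSX single positive cells, with 2 libraries on each side, all 9 log2 fold changes were below 0, from -1.91 for *Snai1* (SE 0.696, unadjusted p = 0.0139, adjusted p = 0.382) to -0.32 for *Snai2*. Several factors were correlated over the CD45- libraries, such as *Prrx1* with *Msx1* (Pearson's r = 0.91), so these directions are not independent. The share of all genes below 0 is not given here. *Snai1* was at 17.0 and 15.6 CPM in Cdh2-cKO and at 95.3 and 27 CPM in wild type libraries, and without the library at 95.3 CPM its log2 fold change was -0.73. All 8 fibroblast markers were below 0 in the same comparison (median -1.16) and all 8 pan-leukocyte markers above 0 (median 1.79), none called. Leukocyte sums were 4500 and 1990 CPM in Cdh2-cKO and 217 and 1740 CPM in wild type libraries, and their part was not tested.

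In double negative cells *Zeb2* was at 36.4, 44.1 and 51.5 CPM in Cdh2-cKO and at 83.3, 35.9 and 117 CPM in wild type libraries (log2 fold change -0.84, SE 0.331, unadjusted p = 0.0209, adjusted p = 0.35), and without wild type replicate 3 it differed by -0.44. In CD45 single positive cells *Zeb1* was at 8.67, 11.2 and 6.37 CPM in Cdh2-cKO and at 9.10, 66.5 and 6.48 CPM in wild type libraries (log2 fold change -1.65, SE 0.626, unadjusted p = 0.0174, adjusted p = 0.482). Without the library at 66.5 CPM the value turned to 0.17. In double positive cells the log2 fold changes ran from -0.45 to 0.83, and no factor had an unadjusted p under 0.05. Whether the difference between CD45- and CD45+ cells itself differed by genotype was tested as an interaction, and 0 of 9 factors passed, against 0% of all genes, with 2 at an unadjusted p under 0.05: *Snai1* with -1.61 (SE 0.618, adjusted p = 0.602) and *Zeb2*, given above.

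**Figure D5:**
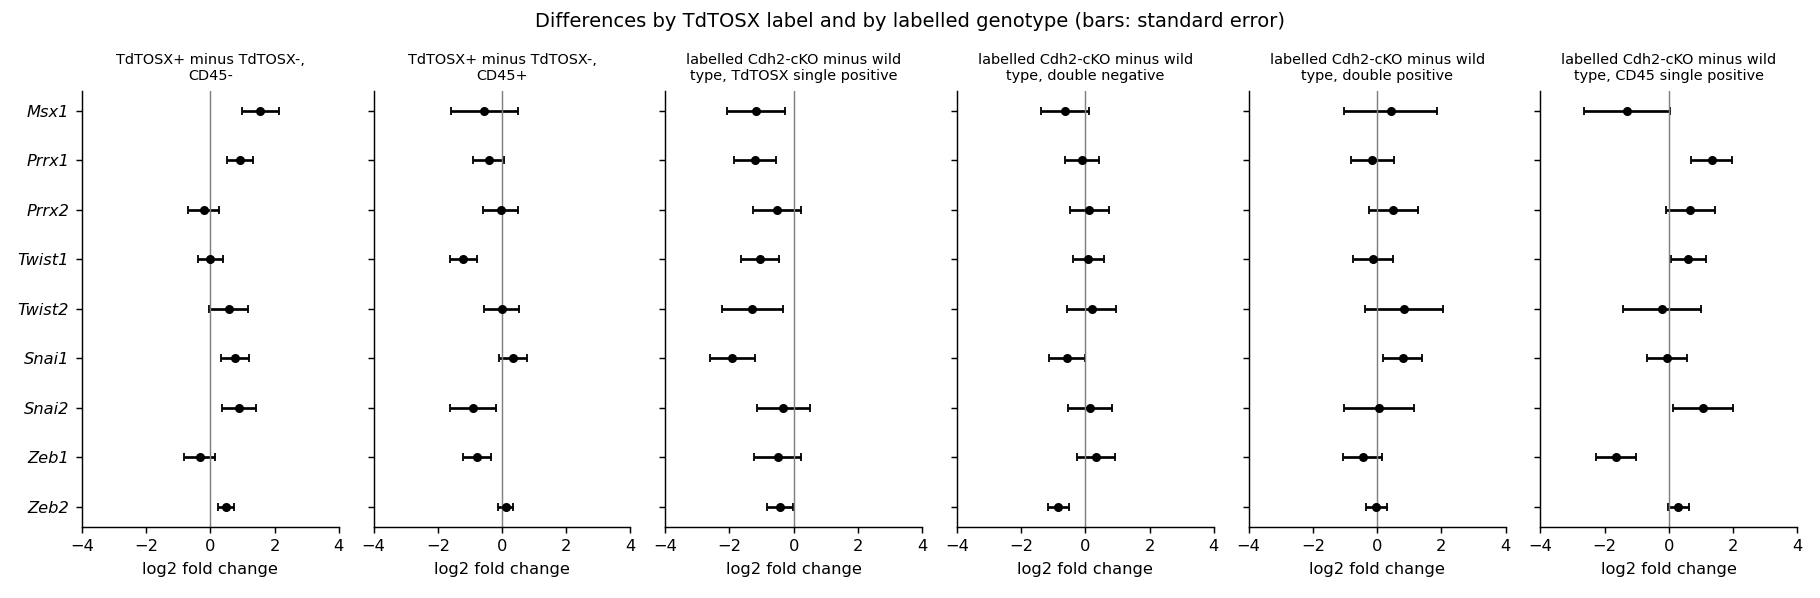
Log2 fold change of each tested factor by TdTOSX label within CD45- and CD45+ cells and by labelled genotype in the 4 populations (edgeR, bars are standard errors). No factor passes its threshold in any of the 6 panels. All 9 lie below 0 for genotype in TdTOSX single positive cells, where several are correlated and 2 libraries stand on each side.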

How the data were processed

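The authors made cDNA with the SMARTer kit, aligned reads with STAR (version 2.0.4b, per the submitters' processing notes) to GRCm38 and counted unambiguous reads per Ensembl gene with featureCounts. The deposited counts are whole reads without normalization. The deposited CPM and RPKM values, scaled by the authors to library totals and gene length, served only to check the counts (largest relative deviation 5.1e-14). Total counts per library ranged from 16594228 to 26784003. Intervals and floors cover counting error only.

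In R 4.3.3, 355 rRNA genes were left out. A gene was kept if it exceeded 1 CPM in 2 or more libraries, as 15018 did. edgeR 4.0.16 fitted quasi-likelihood models with TMM factors to all 22 libraries in 8 groups, and p-values were adjusted over all genes tested (Benjamini-Hochberg). The absolute log2 fold change had to reach 2 for calls by CD45 and TdTOSX, with no fold threshold for genotype or interactions. Nothing says that replicates of different populations came from separate mice, so p-values measure the spread between libraries. Replicate numbers come from the labels. Same-numbered TdTOSX single positive and double negative libraries had correlations of deviations of 0.11 to 0.59 in 4 of 4 pairs (different numbers, -0.59 to 0.43, 1 of 8 over 0.1), so this comparison is also given with a replicate block. With 2 TdTOSX single positive libraries per genotype, whose deviations mirror each other, these pairs are not independent. The fit was tested on simulated data. The alternatives were voomWithQualityWeights (limma 3.58.1), the method of the study, DESeq2 1.42.0, RLE factors, library totals, no low-count filter, other fold thresholds, a replicate block, fits of 1 genotype and leaving out libraries.

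The genes named were the 10 factors, the 2 called genes of each list with the largest change between CD45- and CD45+ cells, the 2 genes most correlated with each factor, and *Cdh2*, *Sp7* and *Ptprc*. Other list genes were named after their values were seen. The factors and lists were chosen with earlier results of these data known. Positions are from the files and GENCODE M21.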

Additional observations from a re-analysis of the deposited data

How the results depend on the processing

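All counts of factors called by CD45, TdTOSX or genotype were the same under voom, DESeq2, RLE factors, library totals, no low-count filter, the other fold threshold, the replicate block, and without both libraries that stand apart. They were also the same without the 3 CD45- libraries with most pan-leukocyte reads of their groups, an alternative chosen after seeing the data. Leaving out 1 library at a time kept 8 factors called by CD45, and gave 0 to 1 within CD45- cells by TdTOSX label, where the 1 was *Msx1* without wild type double negative replicate 1. In wild type alone leaving out that library gave 2 instead of 0, *Prrx1* and *Msx1*. The log2 fold change of *Zeb1* by genotype in CD45 single positive cells ran from -2.11 to 0.17 when 1 library was left out, and was 0.17 without both libraries that stand apart, which include the wild type library at 66.5 CPM. For *Zeb1* by TdTOSX label in CD45+ cells the range was -1.01 to 0.13, with 0.13 also without both. Across these settings *Prrx1* by CD45 stayed between 7.25 and 7.87, and *Zeb2* between -1.13 and -0.62.

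Over all genes, the count by TdTOSX label within CD45- cells was 43 by edgeR, 70 by voom, 130 by DESeq2, 23 without the filter, 22 with the replicate block, 269 without both libraries that stand apart and 140 without the 3 leukocyte-rich libraries. With 1 library left out it ran from 8 (Cdh2-cKO TdTOSX single positive replicate 1) to 184 (wild type double negative replicate 3). By genotype, DESeq2 called 134 genes in TdTOSX single positive, 522 in double negative and 26 in CD45 single positive cells, where edgeR called 1, 0 and 0. In TdTOSX single positive cells edgeR called 77 without both libraries, 306 without the 3, and 0 to 89 with 1 library left out, the 89 without wild type TdTOSX single positive replicate 2, none of them a factor. Library totals moved the median log2 fold change of all genes by CD45 from -0.03 to 0.25. Over all populations, 9 of 30 same-numbered pairs within a genotype had a correlation of deviations over 0.1 (median 0.05), against 6 of 60 pairs with different numbers (median -0.02), and 12 of 22 libraries correlated best with one of their own number. With the replicate block 8 factors were called by CD45 and 0 by TdTOSX label or genotype. At 3 reads per library as the floor, *Msx1* and *Msx2* in CD45+ cells and *Msx2* in CD45- cells are at the limit of detection.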
